A study of Mus musculus with 24 samples.

Results

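The classical MHC class I pathway was described here through 9 genes, taken as the rows of the deposited count table that carry their names: Nlrc5, H2-K1, H2-D1, B2m, Tap1, Tap2, Tapbp, Tapbpl and Erap1. They are 9 of 55434 genes in the table, and all 9 were measured in all 24 RNA-seq libraries. The libraries came from mouse brain cells selected for CD11b, a surface marker of microglia and other myeloid cells, and fall into 8 groups of 3. In 6 groups the cells came from neonatal MRL/lpr mice and spent 48 h in culture with 10% serum. One of these groups stayed unstimulated, and the others received a cytokine for 6 h: interferon gamma (IFNg), interferon alpha (IFNa), interleukin 6 (IL-6), tumour necrosis factor alpha (TNFa) or a mixture of all 4. The other 2 groups were untreated 16-week-old MRL/lpr and untreated 16-week-old MRL/MpJ mice, whose cells were not cultured. The lpr allele is a mutation of Fas, a death receptor, and mice of this strain become ill with a disease like lupus. MRL/MpJ is the strain without that allele. All neonatal groups therefore carry lpr, so no neonatal library stands for the parent strain. The labels give no cytokine doses and do not say whether a library came from 1 animal or from pooled animals, so the p-values measure the spread between these libraries.

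MHC class I molecules display short peptides from inside the cell to CD8 T cells and NK cells. A heavy chain, encoded by H2-K1 or H2-D1 among others, pairs with beta-2 microglobulin (B2m) in the endoplasmic reticulum. The TAP transporter, formed by Tap1 and Tap2, pumps peptides in from the cytosol, tapasin (Tapbp) holds the heavy chain beside TAP while it loads, TAPBPR (Tapbpl) edits the bound peptides, and the aminopeptidase ERAP1 trims them to length. NLRC5 is a transactivator of MHC class I genes. It does not bind DNA itself and acts through the RFX, NF-Y and CREB proteins that sit on a conserved module of class I promoters. Resting microglia show little class I, and interferons are its known inducers.

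In mm10, 5 of the 9 genes lie on chromosome 17, within or beside the MHC: H2-K1 at chr17:33996017-34000347 on the minus strand, and Tapbp at chr17:33915899-33929292, Tap1 at chr17:34187553-34197225, Tap2 at chr17:34203527-34216321 and H2-D1 at chr17:35262730-35267499 on the plus strand. Nlrc5 lies at chr8:94434356-94527272, B2m at chr2:122147686-122153083, Tapbpl at chr6:125223933-125231860 and Erap1 at chr13:74639568-74693201. MRL mice carry the k haplotype of the MHC and the mm10 reference the b haplotype. The part of that mismatch in the counts of H2-K1 and H2-D1 was not tested, and it is shared by all groups. Of the 50-base words of the longest H2-K1 transcript in GENCODE M21, 8.79% also occur in transcripts of other genes, first among them H2-D1. For H2-D1 this held for 294 of 2053 words, mostly shared with H2-Q genes, so reads of these heavy chains cannot be assigned with certainty. The share was 0% for Nlrc5 and for B2m, 6.47% for Tap1 (with Psmb9, which starts beside it), 12.6% for Tap2, 21% for Tapbp, 3.69% for Tapbpl and 14% for Erap1 (with Cast, which overlaps it).

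The promoters are shown as a description. With either interferon, Nlrc5 had the largest log2 fold change of the 9 genes, and the heavy chains and B2m had the smallest. Whether promoter sequence has a part in this was not tested. RefSeq promoter windows of 300 bases (250 before and 50 after the transcript start, GRCm38.p6) were matched for 6 of the 9 genes. The 250 bases before the start are printed for H2-K1 (chr17:34000348-34000597, minus strand) and for B2m (chr2:122147437-122147686, plus strand), 5′ to 3′ along the gene. Capitals mark matches to the motif letters given after the sequences.

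H2-K1: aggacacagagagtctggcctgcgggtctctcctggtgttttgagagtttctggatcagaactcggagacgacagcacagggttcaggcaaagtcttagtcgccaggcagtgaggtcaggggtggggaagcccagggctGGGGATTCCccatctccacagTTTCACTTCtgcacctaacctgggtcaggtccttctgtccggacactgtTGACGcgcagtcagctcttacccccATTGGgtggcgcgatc
B2m: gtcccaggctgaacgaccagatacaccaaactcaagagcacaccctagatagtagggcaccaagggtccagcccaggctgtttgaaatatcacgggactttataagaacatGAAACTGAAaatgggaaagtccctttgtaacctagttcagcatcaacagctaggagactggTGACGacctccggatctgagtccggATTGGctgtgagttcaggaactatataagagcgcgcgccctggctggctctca

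Both strands of each window were searched for a kB site (GGGNNTTCC), 2 forms of the interferon-stimulated response element (ISRE; GAAANNGAA and GAANNGAAA), the interferon gamma activated site (GAS; TTCNNNGAA), the CRE core bound by CREB proteins (TGACG) and the CCAAT box bound by NF-Y (CCAAT, or ATTGG read from the other strand). Among all 32851 RefSeq promoter windows of this length, these letters were found in 5.82%, 8.56%, 7.52%, 8.3%, 20.8% and 37.4%, in that order. A match describes the letters and does not show that a factor binds, and the motifs were chosen after the sequences had been viewed. The windows follow the RefSeq start, and other annotated transcripts begin further upstream. Of the 250 bases before that start, untranslated exon sequence of any gene in GENCODE M21 covers 250 for H2-D1 and for Erap1 (their own transcripts), 246 for Tap1 (mostly Psmb9) and 244 for Tapbp (its own and neighbouring transcripts), against 0 for H2-K1 and 1 for B2m. The stretches printed for H2-D1 and Erap1 therefore lie inside annotated transcripts of these genes. The kB and ISRE letters stand close together in both heavy chain windows, on the 30 bases from chr17:34000429-34000458 (H2-K1) and chr17:35262923-35262952 (H2-D1), which differ at 1 base and share 29.

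H2-K1: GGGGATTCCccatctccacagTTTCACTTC
H2-D1: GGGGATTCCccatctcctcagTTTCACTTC

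A CRE core followed by a reversed CCAAT box, with 10 to 30 bases between them, occurred in 244 of 32851 windows (0.743%). It occurred in 3 of the 6 genes, H2-K1, H2-D1 and B2m, each time with 20 bases between the pair. The 3 stretches lie at chr17:34000359-34000388, chr17:35262993-35263022 and chr2:122147609-122147638.

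H2-K1: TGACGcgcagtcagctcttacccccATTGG
H2-D1: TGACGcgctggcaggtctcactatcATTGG
B2m: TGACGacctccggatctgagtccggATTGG

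The heavy chain stretches share 23 of 30 bases with each other, and B2m shares 13 with H2-K1 and 12 with H2-D1, 10 of which are the searched letters themselves in each case. B2m also held 1 match to the first ISRE form. Erap1 held 2 overlapping matches to that form across its transcript start, at chr13:74639844-74639858.

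Erap1: TTCACTTTCACTTTC

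The Tap1 window held a CRE core and a CCAAT box with no such pair, and it is shared with Psmb9, whose RefSeq start lies 226 bases away on the opposite strand. The Tapbp window held 2 CCAAT boxes. No GAS letters were found in the 6 windows, which says nothing of sites elsewhere.

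**Figure D1:**
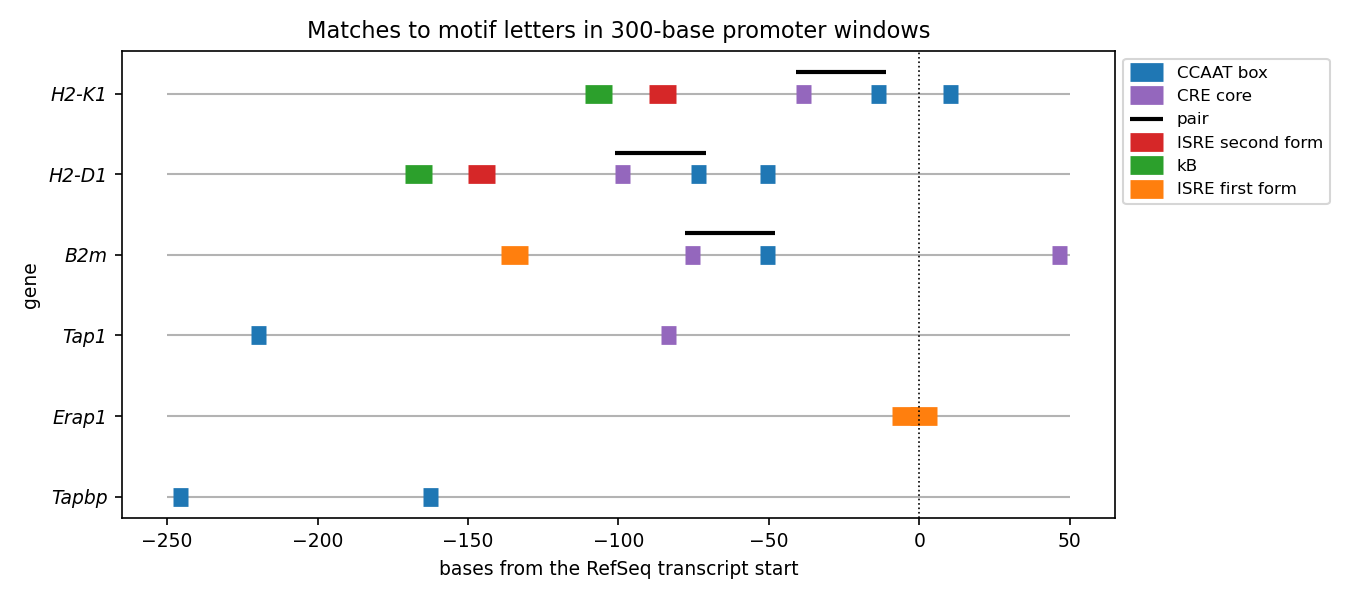
Positions of motif matches in the RefSeq promoter windows of 6 genes. The horizontal axis gives bases from the transcript start (dotted line, 0), coloured blocks are matches on either strand, and the black bar marks a CRE core followed by a reversed CCAAT box. The bar is present for H2-K1, H2-D1 and B2m and absent for Tap1, Erap1 and Tapbp.

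Library totals ran from 10.08 to 19.32 M (mega) counts, and all 9 genes passed the filter on low counts in both fits. Levels are CPM, counts per M counts, scaled by TMM over all 24 libraries. The 9 genes took up 0.258% to 0.473% of all counts in adult libraries and 0.349% to 0.97% in neonatal ones. All 8 microglial markers checked (among them Tmem119, P2ry12 and Csf1r) were detected in every group. Their summed plain CPM was 59570 to 60980 in MRL/MpJ, 39680 to 43090 in MRL/lpr and 7333 to 8041 in unstimulated neonatal cells. It was below the unstimulated range, without overlap, with IFNg (5297 to 6584), IFNa (5285 to 5566) and the mixture (4225 to 5100), and overlapped it with IL-6 (6579 to 7480) and TNFa (6501 to 7367). Of the 8 markers 2 were higher and 2 lower with IFNg (against 8.57% and 4.32% of all genes) and with IFNa (9.41% and 5.07%). With the mixture 3 were higher and 2 lower (15.7% and 16.4%), and with TNFa 1 and 2 (4.38% and 3.72%). None was called with IL-6. The part of this in the levels of the 9 genes was not tested. In bulk RNA, fewer cells of a type and less RNA per cell cannot be told apart. Replicate numbers pair the neonatal libraries, and those numbered 1 had the most RNA of astrocyte markers (257 to 296 summed CPM, against 28.3 to 74.5 in the others) in all 6 groups. Scaling by total counts alone in place of TMM shifts the median of all genes by 0.26 on the log2 scale in the adult comparison, -0.18 with IFNg, -0.17 with IFNa and -0.41 with the mixture. It moves the share of higher genes among those called from 52.7% to 76.9% (adult), 66.5% to 45.1% (IFNg), 65% to 43.3% (IFNa) and 48.8% to 23.7% (mixture). The changes of the 9 genes are relative to the TMM scale.

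Per length, B2m was the most abundant of the 9 genes in unstimulated neonatal cells, at 2801 ± 987 CPM per kb (mean ± SD, n = 3). The heavy chains followed, with 201 ± 82.5 CPM per kb for H2-K1 and 174 ± 64.2 for H2-D1. Tapbp had 138 ± 57.3 CPM per kb, while the transporter chains had 18.9 ± 4.69 (Tap2) and 13.8 ± 5.44 (Tap1). Erap1 had 10.9 ± 2.34, Tapbpl 5.32 ± 0.902 and Nlrc5, the regulator, 1.24 ± 0.809 CPM per kb. The order of the means differed in mixture-treated cells. Tapbp stood at 622 ± 179.8 CPM per kb, above the means of H2-K1 (480.4 ± 154), whose range it overlapped, and of H2-D1 (271 ± 91.2), whose range it did not. Tap1 (210 ± 22.3 CPM per kb) stood above Tap2 (178 ± 19.5), and both remained below the mean of H2-D1. These orders rest on the deposited lengths, which for most of the 9 genes exceed the longest protein-coding transcript in GENCODE M21. The lengths were 2938 against 1619 bases for H2-K1, 3628 against 2898 for Tapbp and 5476 against 2953 for Tap1. Whether the order of genes holds with other lengths was not tested.

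**Figure D2:**
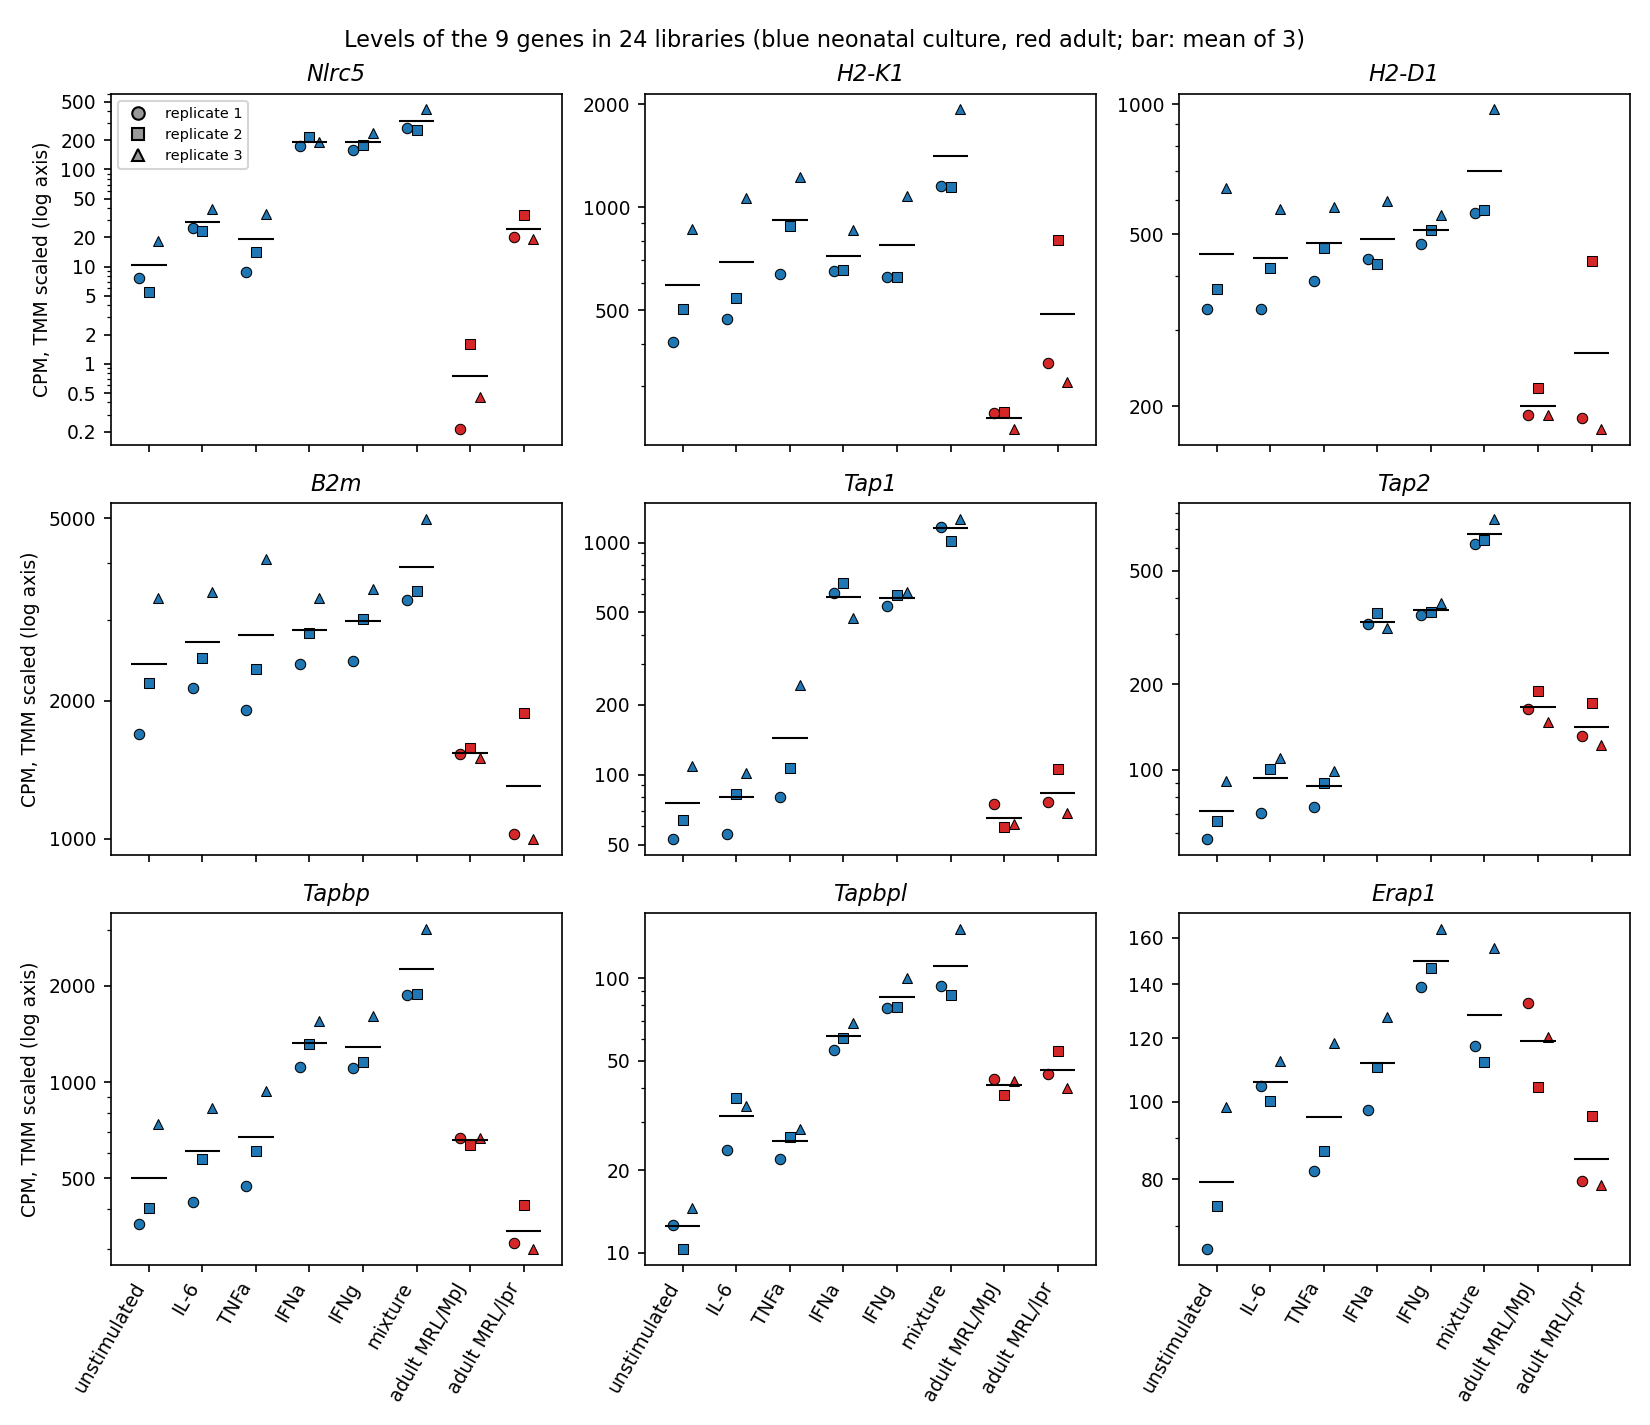
Levels of the 9 genes in each of the 24 libraries, in TMM-scaled CPM on a log axis that differs between panels. Points are libraries (circle, square and triangle for replicates 1, 2 and 3; blue neonatal, red adult) and bars are group means. Nlrc5, Tap1, Tap2, Tapbp and Tapbpl stand apart in the IFNa, IFNg and mixture groups, while the heavy chains and B2m overlap across most neonatal groups.

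Interferon of either kind raised the regulator, the transporter and Tapbpl several-fold within 6 h, and Tapbp by 2.6-fold. The Tapbp calls were lost without unstimulated replicate 1 or 2. With interferon the heavy chains and B2m overlapped the unstimulated libraries. IFNg also raised Erap1. The mixture raised the genes that IFNg raised and also H2-K1. Its calls of Erap1 and H2-K1 were each lost under several other settings. With the replicate number as a block, IFNg also raised H2-K1 (0.45, edgeR adjusted p = 0.0132) and B2m (0.38, edgeR adjusted p = 0.0157), and TNFa raised H2-K1 (0.64, edgeR adjusted p = 0.00118). In that fit the mixture raised H2-D1 (0.59, edgeR adjusted p = 0.000606) and B2m (0.68, edgeR adjusted p = 5.62e-05). It called no heavy chain or B2m with IFNa or IL-6. IL-6 and TNFa each raised Tapbpl, but both calls were lost without unstimulated replicate 2. In adult mice Nlrc5 was far higher in MRL/lpr than in MRL/MpJ, while Tapbp and Erap1 were lower. The adult Erap1 call was lost under several other settings.

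The regulator Nlrc5 had the widest range of the 9 genes, 1960-fold between the lowest and the highest library. Unstimulated neonatal libraries held 7.68, 5.48 and 18.33 CPM of it. With IFNg it stood at 159, 178 and 235 CPM. With IFNa it stood at 175, 214 and 191 CPM. Every interferon library exceeded every unstimulated one, and the groups of both interferons overlapped each other. The log2 fold change was 4.20 ± 0.525 (SE) with IFNg and 4.17 ± 0.524 with IFNa, each 18-fold, with edgeR adjusted p-values of 7.61e-05 and 7.16e-05. Without unstimulated replicate 3, the highest of its group, they were 4.91 and 4.89. Without unstimulated replicate 2, the lowest, they were 3.89 and 3.86.

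Mixture-treated cells held 269, 255 and 414 CPM of Nlrc5, above every other group. In plain CPM, without TMM, the mixture (204.5 to 295) overlapped IFNg (165.2 to 220.5). The log2 fold change against unstimulated cells was 4.83 ± 0.54 (edgeR adjusted p = 6.84e-06). It was 5.54 without unstimulated replicate 3 and 4.52 without unstimulated replicate 2. With IL-6 the values were 24.9, 23.3 and 39.0 CPM, all above the unstimulated libraries, but the change of 1.47 ± 0.481 did not pass (edgeR adjusted p = 0.247). With the replicate number as a block it did (1.55, edgeR adjusted p = 0.0217), and so did DESeq2 (adjusted p = 0.0362). Without unstimulated replicate 3 it was 2.18 (edgeR adjusted p = 0.0774), and without unstimulated replicate 2 it was 1.16. The TNFa libraries held 8.74, 14.0 and 35.1 CPM and overlapped the unstimulated ones (0.85 ± 0.478, edgeR adjusted p = 0.393). This change was 0.08 without TNFa replicate 3 and 1.57 without unstimulated replicate 3 (edgeR adjusted p = 1 and 0.0797).

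In the adult MRL/lpr libraries Nlrc5 stood at 20.2, 33.8 and 19.4 CPM, from 395, 661 and 406 reads. In MRL/MpJ it stood at 0.212, 1.60 and 0.458 CPM, from 3, 20 and 7 reads. No MRL/MpJ library came near any MRL/lpr library, and the adult MRL/MpJ group was the lowest of all 8. The log2 fold change was 5.13 ± 0.476, or 34.9-fold (edgeR adjusted p = 1.93e-05). It was 6.21 without MRL/MpJ replicate 2, which held most of that group's reads, and 4.68 without MRL/MpJ replicate 1. The few reads in MRL/MpJ limit the precision of this fold. The mean in adult MRL/lpr, 24.4 ± 8.07 CPM, lay between those of the TNFa and IL-6 groups of neonatal cells and did not separate from either.

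The heavy chain H2-K1, which presents peptides to CD8 T cells, was measured at 404, 505 and 865 CPM in unstimulated cells. IFNg libraries held 627, 626 and 1078 CPM, and IFNa libraries 653, 657 and 858. Both ranges overlap the unstimulated one. The log2 fold changes were 0.41 ± 0.372 (edgeR adjusted p = 0.606) and 0.26 ± 0.372 (edgeR adjusted p = 0.778). In each of the 6 neonatal groups the library numbered 3 was the highest. Within the pairs of the same number, IFNg exceeded the unstimulated library by 0.63, 0.31 and 0.32 on the log2 scale, and the fit with the replicate block gave 0.45 (edgeR adjusted p = 0.0132). For IFNa the block gave 0.34 (edgeR adjusted p = 0.0519).

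TNFa libraries held 638, 880 and 1231 CPM of H2-K1, the highest mean of the single cytokines (916 ± 298, n = 3). The change of 0.61 ± 0.373 did not pass (edgeR adjusted p = 0.456), but it did with the block (0.64, edgeR adjusted p = 0.00118), with TNFa above its partner in 3 of 3 pairs. IL-6 gave 470, 544 and 1063 CPM, a change of 0.23 ± 0.371 (edgeR adjusted p = 0.947). The mixture gave 1156, 1144 and 1933 CPM, above all unstimulated libraries, and H2-K1 rose by 1.19 ± 0.376, or 2.28-fold (edgeR adjusted p = 0.0235). That call was lost without unstimulated replicate 1 (edgeR adjusted p = 0.103), unstimulated replicate 2 (0.0906) or mixture replicate 3 (0.0862), with no filter (0.0683) and with total counts (0.78, edgeR adjusted p = 0.0507).

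In adults, H2-K1 was measured at 351, 801 and 308 CPM in MRL/lpr and at 250.0, 252 and 225 CPM in MRL/MpJ. The groups did not overlap, and MRL/lpr replicate 2 stood far above the other MRL/lpr libraries. The log2 fold change of 1.07 ± 0.373 narrowly missed the threshold (edgeR adjusted p = 0.0574). It passed with DESeq2 (adjusted p = 0.0433) and RLE size factors (edgeR adjusted p = 0.0488). With the replicate block it was 0.93 and did not pass (edgeR adjusted p = 0.106). Without MRL/lpr replicate 2 it was 0.53 and passed (edgeR adjusted p = 0.00103), and without MRL/lpr replicate 3 it was 1.32 (edgeR adjusted p = 0.0146). The highest edgeR adjusted p with 1 library left out was 0.149.

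The second heavy chain, H2-D1, stood at 335, 374 and 640 CPM in unstimulated cells. With IFNg it was 474, 510.0 and 553 CPM and with IFNa 438, 426 and 596, ranges that lie inside the unstimulated one. Changes were 0.21 ± 0.283 (edgeR adjusted p = 0.769) and 0.09 ± 0.283 (0.926). IL-6 libraries held 335, 417 and 573 CPM and TNFa libraries 389, 464 and 578, again without separation. Mixture libraries held 559, 568 and 971 CPM and overlapped the unstimulated range only through unstimulated replicate 3. The change with the mixture was 0.57 ± 0.284 (edgeR adjusted p = 0.145), and 0.59 with the block (edgeR adjusted p = 0.000606). Adult values were 188, 434 and 177 CPM in MRL/lpr and 190, 221 and 191 in MRL/MpJ. The adult change of 0.47 ± 0.358 (edgeR adjusted p = 0.332) rested on MRL/lpr replicate 2, and without it was -0.05.

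The light chain B2m, shared by all class I molecules, was measured at 1691, 2189 and 3346 CPM in unstimulated cells. IFNg gave 2441, 3017 and 3500 CPM and IFNa 2400, 2809 and 3356. The changes, 0.33 ± 0.308 (edgeR adjusted p = 0.62) and 0.22 ± 0.308 (edgeR adjusted p = 0.773), did not pass, and the block gave 0.38 for IFNg (edgeR adjusted p = 0.0157). IL-6 libraries (2134, 2473 and 3460 CPM) and TNFa libraries (1905, 2348 and 4078) overlapped the unstimulated range as well. In the mixture, 3314, 3473 and 4973 CPM gave a change of 0.64 ± 0.309 (edgeR adjusted p = 0.135), which passed with the block (0.68, edgeR adjusted p = 5.62e-05). Adult MRL/lpr libraries held 1024, 1880 and 999 CPM, and MRL/MpJ libraries 1534, 1579 and 1501. MRL/lpr replicate 2 lay above and the other MRL/lpr libraries below all MRL/MpJ libraries. The adult change was -0.18 ± 0.219 (edgeR adjusted p = 0.55), and -0.52 without MRL/lpr replicate 2 (edgeR adjusted p = 0.000328).

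Read ratios within a library do not depend on scaling between libraries. The ratio of H2-K1 to H2-D1 reads was 1.21, 1.35 and 1.35 in unstimulated cells, 1.64, 1.90 and 2.13 with TNFa and 2.07, 2.01 and 1.99 with the mixture. In adults it was 1.87, 1.85 and 1.74 in MRL/lpr and 1.31, 1.14 and 1.18 in MRL/MpJ. MRL/lpr replicate 2, which stood apart in the levels of both heavy chains, did not stand apart in their ratio. The groups did not overlap in these 3 comparisons, nor did IFNa (1.49, 1.54 and 1.44) overlap unstimulated cells. Each gave p = 0.1 in a two-sided exact permutation test, the smallest that 3 against 3 can give, and 0.164 after adjustment over 18 ratio comparisons. With IFNg (1.32, 1.23 and 1.95) and IL-6 (1.40, 1.30 and 1.86) the ratio overlapped the unstimulated range.

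The ratio of B2m to H2-K1 reads was 2.92, 2.35 and 3.24 in adult MRL/lpr and 6.14, 6.27 and 6.68 in MRL/MpJ. The strains did not overlap (exact permutation p = 0.1, adjusted 0.164). Geometric means in neonatal cells were 4.12 unstimulated, 3.94 with IFNg, 3.95 with IFNa, 2.98 with TNFa and 2.82 with the mixture. TNFa and the mixture did not overlap unstimulated cells (exact permutation p = 0.1, adjusted 0.164 for each), and both interferons did.

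**Figure D3:**
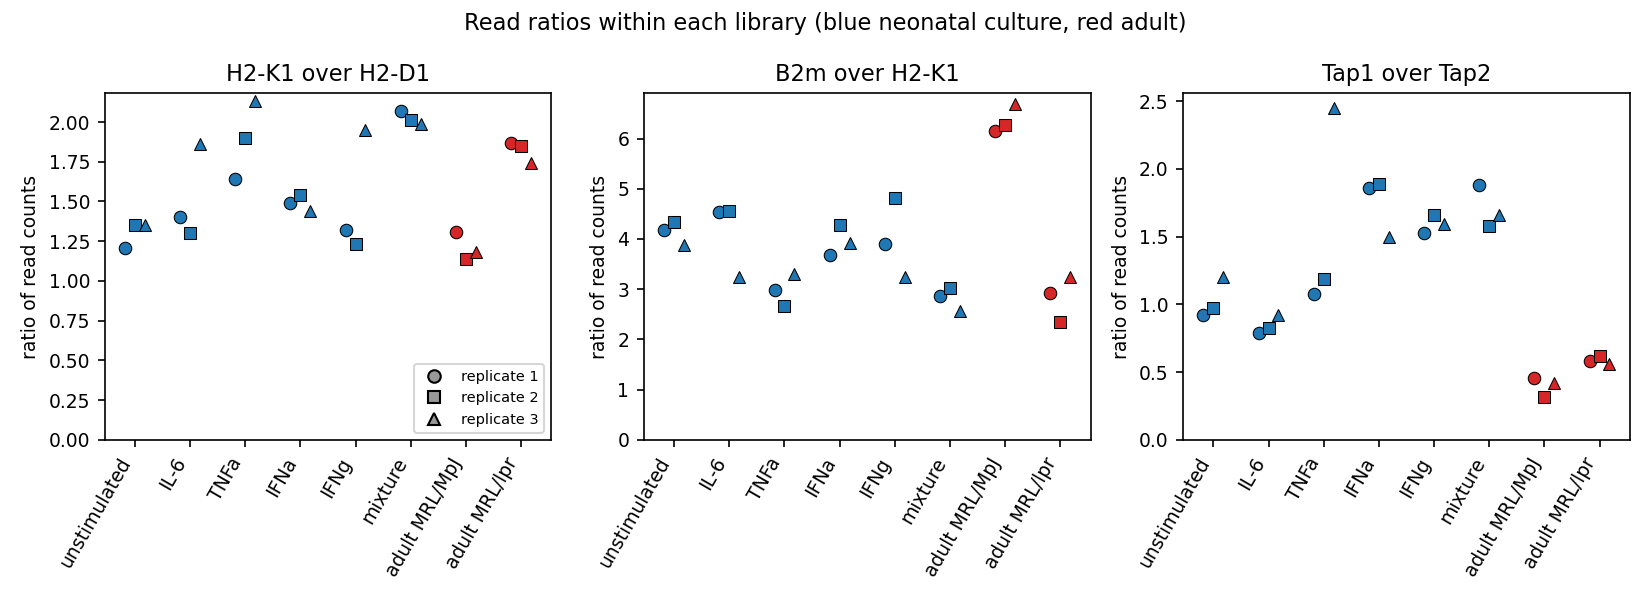
Ratios of read counts within each library for 3 pairs of genes. Points are libraries (shape for replicate number; blue neonatal, red adult) and each vertical axis starts at 0. The ratio of H2-K1 to H2-D1 is higher in TNFa, mixture and adult MRL/lpr libraries, and that of B2m to H2-K1 is highest in adult MRL/MpJ.

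Tap1, the first chain of the peptide transporter, stood at 52.8, 64.1 and 109 CPM in unstimulated cells. It reached 534 to 612 CPM in the IFNg libraries and 472 to 669 CPM in the IFNa libraries. These rises were 2.96 ± 0.384 (7.79-fold, edgeR adjusted p = 8.65e-05) and 2.92 ± 0.384 (7.57-fold, edgeR adjusted p = 9.02e-05). Mixture libraries held 1171, 1019 and 1260 CPM, above every single-cytokine library, a rise of 3.87 ± 0.4 or 14.6-fold (edgeR adjusted p = 2.57e-06). IL-6 libraries (55.7, 82.7 and 102 CPM) lay within the unstimulated range. TNFa libraries held 80.1, 107 and 243 CPM, with replicate 3 far above the rest (0.9 ± 0.361, edgeR adjusted p = 0.17).

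Tap2, the second chain, started from 57.1, 66.1 and 91.3 CPM. The 3 IFNg libraries held 350 to 385 CPM and the 3 IFNa libraries 314 to 354, narrow ranges far above the unstimulated one. Tap2 rose by 2.37 ± 0.203 with IFNg (5.17-fold, edgeR adjusted p = 1.72e-06) and by 2.19 ± 0.202 with IFNa (4.56-fold, edgeR adjusted p = 3.75e-06). The mixture gave 623, 643 and 759 CPM, a rise of 3.18 ± 0.21 or 9.06-fold (edgeR adjusted p = 3.44e-08). IL-6 (70.7, 100 and 110 CPM) and TNFa (74.0, 89.9 and 99.2 CPM) overlapped unstimulated cells and did not pass. The ratio of Tap1 to Tap2 reads had a geometric mean of 1.02 in unstimulated cells, 1.59 with IFNg, 1.74 with IFNa and 1.7 with the mixture. Each of these 3 groups stood apart from unstimulated cells (exact permutation p = 0.1, adjusted 0.164).

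In adults Tap1 was 76.7, 106 and 68.3 CPM in MRL/lpr and 74.4, 59.6 and 61.4 CPM in MRL/MpJ. It was called higher in MRL/lpr by 0.42 ± 0.158 (edgeR adjusted p = 0.0459), although the groups overlapped. The call was lost without MRL/lpr replicate 2 (0.24, edgeR adjusted p = 0.122), without MRL/MpJ replicate 2 (0.135) or 3 (0.13), and with all 24 libraries in 1 fit (0.455). Tap2 was 131, 171 and 122 CPM in MRL/lpr and 164, 188 and 147 in MRL/MpJ (-0.17 ± 0.141, edgeR adjusted p = 0.353). Their ratio was higher in MRL/lpr, with geometric means of 0.59 and 0.39 and no overlap (exact permutation p = 0.1, adjusted 0.164).

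Tapasin (Tapbp) stood at 360, 406 and 741 CPM in unstimulated cells. With IFNg it was 1107, 1156 and 1605 CPM and with IFNa 1113, 1317 and 1549, with no overlap. Tapbp rose by 1.38 ± 0.337, or 2.6-fold, with each (edgeR adjusted p = 0.0118 and 0.0103). Both calls were lost without unstimulated replicate 1 (edgeR adjusted p = 0.0637 for IFNg and 0.0561 for IFNa) or replicate 2 (0.0665 and 0.0611), and that of IFNg also without IFNg replicate 3 (0.0554). Mixture libraries held 1879, 1882 and 3011 CPM, a rise of 2.1 ± 0.345 or 4.3-fold (edgeR adjusted p = 0.000188). TNFa libraries (475, 611 and 935 CPM) overlapped the unstimulated ones, and the change of 0.4 ± 0.332 (edgeR adjusted p = 0.642) passed only with the block (0.42, edgeR adjusted p = 0.016). IL-6 gave 421, 575 and 832 CPM (0.29 ± 0.332, edgeR adjusted p = 0.901).

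Adult Tapbp was 315, 413 and 301 CPM in MRL/lpr and 670, 638 and 667 CPM in MRL/MpJ. All MRL/lpr libraries lay below all MRL/MpJ libraries, and Tapbp was lower by 1.84-fold (-0.88 ± 0.123, edgeR adjusted p = 0.000155). It kept that direction and passed without each library in turn, from -1.01 to -0.78.

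The tapasin-related editor Tapbpl was the one gene of the 9 called higher with every cytokine. It stood at 12.6, 10.3 and 14.6 CPM in unstimulated cells and at 23.6, 36.7 and 34.4 CPM with IL-6. TNFa libraries held 22.0, 26.4 and 28.3 CPM. Neither group overlapped unstimulated cells. The rise was 1.35 ± 0.225 with IL-6, or 2.54-fold (edgeR adjusted p = 0.00628), and 1.01 ± 0.224 with TNFa, or 2.02-fold (edgeR adjusted p = 0.0079). Without unstimulated replicate 2, the lowest, these calls were lost (edgeR adjusted p = 0.0642 and 0.0549), and that of IL-6 also with only the 2 groups in the fit (0.0505).

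With IFNg, Tapbpl stood at 78.2, 78.4 and 100.1 CPM, with IFNa at 54.9, 60.5 and 68.7 CPM and with the mixture at 94.0, 87.1 and 151 CPM. The rises were 6.97-fold (2.8 ± 0.233, edgeR adjusted p = 1.32e-06), 4.85-fold (2.28 ± 0.23, edgeR adjusted p = 8.44e-06) and 8.51-fold (3.09 ± 0.236, edgeR adjusted p = 1.15e-07). Adult libraries held 44.8, 54.3 and 39.9 CPM in MRL/lpr and 42.9, 37.7 and 42.4 CPM in MRL/MpJ, which overlap (0.24 ± 0.134, edgeR adjusted p = 0.164). On total counts the adult change was 0.5 and passed (edgeR adjusted p = 0.00794).

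Erap1 had the narrowest range, 2.5-fold between the lowest and highest of all 24 libraries. It stood at 65.5, 74.0 and 98.4 CPM in unstimulated cells and at 139, 147 and 164 CPM with IFNg, the highest group. It rose with IFNg by 0.94 ± 0.187, or 1.92-fold (edgeR adjusted p = 0.00275). Mixture libraries held 117, 112 and 155 CPM, a rise of 0.63 ± 0.187 (edgeR adjusted p = 0.0152) that was lost on total counts (0.22, edgeR adjusted p = 0.177), with only the 2 groups in the fit (0.0527) and without unstimulated replicate 1 (0.0825) or 2 (0.0628). IFNa libraries held 97.7, 110 and 128 CPM, overlapping unstimulated cells by a small margin (0.47 ± 0.186, edgeR adjusted p = 0.113). The block called IFNa (0.49, edgeR adjusted p = 0.00104) and IL-6 (0.45, edgeR adjusted p = 0.0125), whose libraries held 105, 100 and 112 CPM. TNFa gave 81.9, 86.9 and 118 CPM and did not pass.

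In adults Erap1 was 79.7, 96.0 and 78.7 CPM in MRL/lpr and 133, 104 and 120 CPM in MRL/MpJ, with no overlap. It was lower in MRL/lpr by 1.34-fold (-0.42 ± 0.121, edgeR adjusted p = 0.0135). The call was lost on total counts (-0.16, edgeR adjusted p = 0.273) and without MRL/lpr replicate 1 (0.059), MRL/lpr replicate 3 (0.0609) or MRL/MpJ replicate 1 (0.0644).

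**Figure D4:**
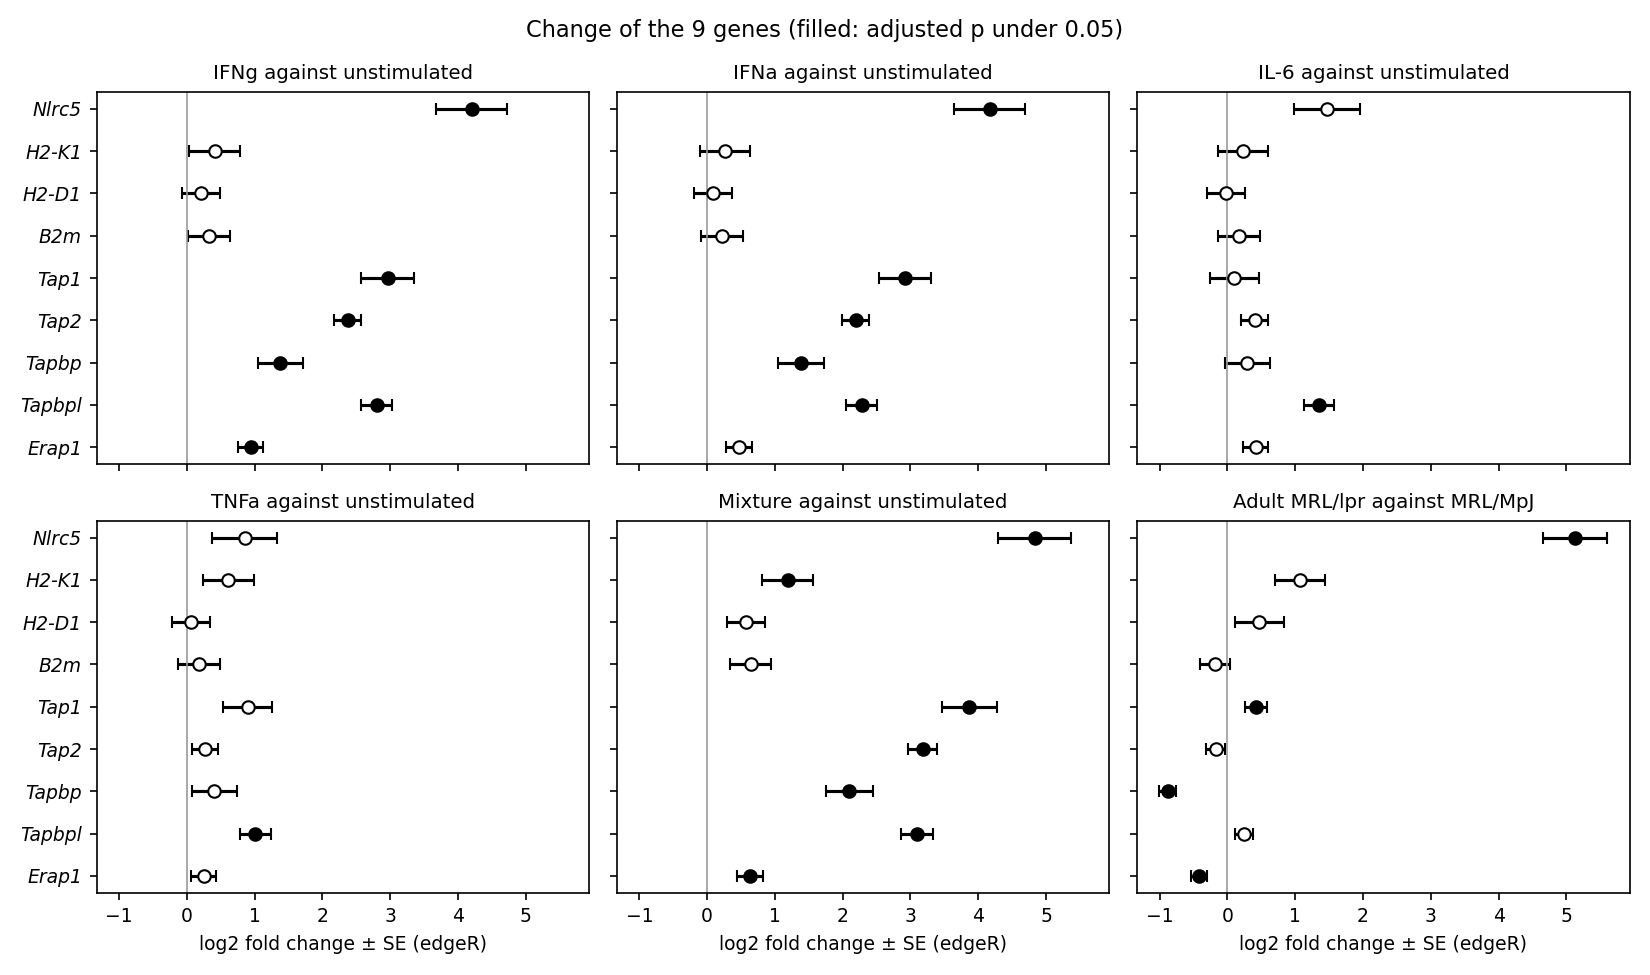
The log2 fold change of each gene with its SE (edgeR) in 6 comparisons, 3 libraries against 3. Filled points have an adjusted p under 0.05. Nlrc5 lies above 4 with IFNg, IFNa, the mixture and in the adult comparison. H2-D1 and B2m have open points throughout in this fit, which leaves out the replicate block. With the block, which is not drawn, B2m passed with IFNg and the mixture, and H2-D1 with the mixture.

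Counted by comparison, 6 of 9 genes were higher with IFNg at an edgeR adjusted p under 0.05, against 8.57% of all 14626 genes tested. The median log2 fold change of the 9 genes was 1.38, and that of all genes -0.02. IFNa gave 5 of 9 higher, against 9.41% of all genes. Its median over the 9 genes was also 1.38. The mixture gave 7 of 9, against 15.7%, with a median of 2.1. For IL-6 the count was 1 of 9, Tapbpl, against 0.745%, or 3 of 9 against 3.04% with the block (Nlrc5, Tapbpl and Erap1). For TNFa it was 1 of 9, again Tapbpl, against 4.38%, or 3 of 9 against 8.98% with the block (H2-K1, Tapbp and Tapbpl). With the block IFNg gave 8 of 9, adding H2-K1 and B2m, IFNa gave 6, adding Erap1, and the mixture gave 9, adding H2-D1 and B2m. The block called 2156, 2093 and 3002 of all 14626 genes higher in these 3 comparisons. None of the 9 was called lower with a cytokine in edgeR, with or without the block. The 5 comparisons share the same unstimulated libraries.

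In adult MRL/lpr the genes went both ways. Of the 9 genes 2 were higher (Nlrc5 and Tap1), against 24.1% of 13799 genes tested, and 2 were lower (Tapbp and Erap1), against 21.6%. These shares are near the background. On total counts 4 were higher (Nlrc5, H2-K1, Tap1 and Tapbpl) and 1 lower (Tapbp). At that setting 4783 of all genes were called higher and 1439 lower. Without MRL/lpr replicate 2 both H2-K1 (higher) and B2m (lower) were called and Tap1 was not.

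That library stood apart in other ways. The 9 genes took up 0.473% of its counts, against 0.266% and 0.258% in the other MRL/lpr libraries. Its summed markers of B and plasma cells were 96.4 CPM, against 37.3 and 33.5, and those of astrocytes 63.4 CPM, against 24.2 and 13.4. Markers of other cell types moved with the strain, set here against 24.1% of all genes higher and 21.6% lower. Of 9 T cell markers 5 were higher and none lower in MRL/lpr, with a summed level of 19.9 to 24.3 CPM against 6.65 to 11.1, and Cd8b1 was at 0 in MRL/MpJ. Of 6 NK cell markers 5 were higher, with a sum of 50.5 to 64.5 CPM against 6.41 to 18.2, and Klre1 was at 0 in MRL/MpJ. Of 8 microglial markers 6 were lower, and of 6 border macrophage markers all 6 were lower (69.9 to 127 CPM against 211 to 254). Of 6 markers of mural cells and fibroblasts 3 were lower (64.2 to 79.8 CPM against 104 to 153), and of 5 oligodendrocyte markers 3 were lower, with sums that overlapped (96.7 to 174 CPM against 151 to 224). The part of these cells in the levels of Nlrc5 and the other genes was not tested.

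In neonatal cells the NK list stood higher in the groups in which Nlrc5 and the transporter rose, at 33.9 to 84.5 CPM with IFNg, 45.5 to 60.8 with IFNa and 44.4 to 100.8 with the mixture, against 0.159 to 5.52 unstimulated. Of its 6 genes only Klrk1 had enough reads to be tested, and it was called in all 3. With IFNa 5 of the 6 genes were at 0, so that sum was Klrk1 alone. With IFNg 4 were at 0 (Ncr1, Klrb1c, Gzma and Prf1), and with the mixture 3 (Ncr1, Klrb1c and Klre1). Unstimulated cells had 3 at 0 (Klre1, Gzma and Prf1). The T cell list summed to 16.6 to 25.5 CPM with IFNg and 27.5 to 72.5 with the mixture against 7.36 to 16.4. Cd8a and Cd8b1 were at 0 in both, and Cd3e and Cd3d also in the mixture. Of its 9 genes 2 were tested, and 1 was called higher in each (against 8.57% and 15.7% of all genes). B and plasma cell markers stood lower than unstimulated (7.3 to 11.8 CPM) with IFNa (5.26 to 5.99), TNFa (3.93 to 5.78) and the mixture (1.82 to 3.51). Endothelial markers summed to 180.2 to 202 CPM with IFNa and 129.5 to 162.5 with the mixture against 25.9 to 54.6, with none at 0. Of 5 tested, 2 were higher in each (against 9.41% and 15.7% of all genes). Monocyte markers summed to 38.4 to 57.6 CPM with the mixture against 7.59 to 30.2, with none at 0. Of these 5 markers 2 were higher (against 15.7% of all genes). Border macrophage markers stood lower with IFNa (218.5 to 225.8 CPM) and the mixture (261 to 275) and higher with IL-6 (494 to 539) than unstimulated (299 to 328). Oligodendrocyte markers stood lower with the mixture (18.4 to 34.7 CPM) and IL-6 (38.2 to 45) than unstimulated (59.1 to 72.5). Whether cells of these types changed in number, and their part in the changes of the 9 genes, was not tested.

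The mixture was also set against IFNg alone. The labels give no doses, so the other 3 cytokines and any difference in IFNg dose cannot be told apart. One gene of 9 passed, against 6.45% of all genes: Tap2, by 0.81 ± 0.194 or 1.75-fold (edgeR adjusted p = 0.00997). The mixture libraries exceeded all IFNg libraries also for Nlrc5 (0.63 ± 0.456), H2-K1 (0.78 ± 0.373), H2-D1 (0.37 ± 0.283), Tap1 (0.91 ± 0.359) and Tapbp (0.73 ± 0.333), which did not pass (edgeR adjusted p from 0.114 to 0.489). In plain CPM, without TMM, the mixture and IFNg ranges overlapped for Nlrc5 (204.5 to 295 and 165.2 to 220.5). They also overlapped for H2-K1 (917 to 1376 and 599 to 1014) and H2-D1 (456 to 692 and 488 to 520). Those of Tapbp met at 1509, and those of Tap1 and Tap2 stayed apart. With the block, 3 of 9 were higher, against 11.9%: H2-K1 (edgeR adjusted p = 0.000146), Tap2 and Tapbp (0.000168). Erap1 was the 1 gene lower with the block (-0.32, edgeR adjusted p = 0.0222), against 14.4% of all genes, and in 3 of 3 pairs it was lower in the mixture than with IFNg.

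IFNg and IFNa were also compared with each other. Of the 9 genes 0 passed in edgeR, against 2.81% of all genes called higher with IFNg, and 2 had an unadjusted p under 0.05. DESeq2 and limma-voom also called 0. The differences were 0.02 ± 0.455 for Nlrc5, 0.04 ± 0.356 for Tap1, 0.18 ± 0.193 for Tap2 and 0 ± 0.331 for Tapbp, which leaves room for sizeable differences either way. Tapbpl and Erap1 had no overlap between the interferons and were higher with IFNg in 3 of 3 pairs. They passed with the block (0.52, edgeR adjusted p = 0.0148, and 0.47, edgeR adjusted p = 0.00281), 2 of 9 against 7.56%.

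Other genes of the pathway were taken from 4 lists. The immunoproteasome and its PA28 cap, which cut proteins into peptides fit for class I, had 4 of 5 genes higher with IFNg (against 8.57% of all genes), 4 with IFNa (9.41%), 5 with the mixture (15.7%), 1 with TNFa (4.38%) and 0 with IL-6 (0.745%). The fifth gene with the interferons, Psme1, passed with the block (edgeR adjusted p = 0.00483 for IFNg and 0.00267 for IFNa). Psmb9, the subunit gene that starts beside Tap1, went from a mean of 44.2 to 207 CPM with IFNg (2.24 ± 0.241, edgeR adjusted p = 1.43e-05), 211 CPM with IFNa (2.23 ± 0.241, edgeR adjusted p = 1.47e-05) and 316 CPM with the mixture (2.78 ± 0.246, edgeR adjusted p = 4.33e-07). Psmb8 rose from 182 to 492, 559 and 792 CPM in the same order, and Psmb10 from 123 to 311, 430 and 612 CPM. With TNFa the gene that passed was Psme2, of the PA28 cap (0.82 ± 0.175, edgeR adjusted p = 0.0064). In adults Psmb9 was higher in MRL/lpr (0.6 ± 0.171, edgeR adjusted p = 0.0131) and Psmb10 lower (-0.42 ± 0.151, edgeR adjusted p = 0.0392).

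The next list holds 4 endoplasmic reticulum chaperones, among them those that fold heavy chains, and Lnpep, which encodes IRAP, an endosomal aminopeptidase that trims peptides in cross-presentation. In adult MRL/lpr all 5 were lower, against 21.6% of all genes, with Canx (calnexin) at 652 against 1195 CPM (-0.81 ± 0.101, edgeR adjusted p = 6.71e-05), Calr (calreticulin) at 1122 against 1943 CPM (-0.73 ± 0.102, edgeR adjusted p = 0.000153) and Pdia3 at 849 against 1322 CPM (-0.57 ± 0.111, edgeR adjusted p = 0.00133). Tapbp, which works beside these chaperones, was lower in the same comparison. In neonatal cells Hspa5 rose with IFNg (0.61 ± 0.136, edgeR adjusted p = 0.00615) and with the mixture (0.48 ± 0.135, edgeR adjusted p = 0.0123), Lnpep rose with the mixture (1.65 ± 0.412, edgeR adjusted p = 0.0058), and none passed with IFNa, IL-6 or TNFa. With the replicate block Lnpep passed with IFNg (1.07, edgeR adjusted p = 3.85e-06) and IFNa (1.24, edgeR adjusted p = 5.74e-07), Hspa5 with IFNa (0.34, edgeR adjusted p = 0.00147) and IL-6 (0.44, edgeR adjusted p = 0.00108), and Calr with IFNg (0.28, edgeR adjusted p = 0.0146).

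Of the 8 RFX, NF-Y and CREB genes that serve NLRC5 on DNA, Rfx5 was the one that passed most often. It rose from a mean of 8.13 CPM to 16.4 with IFNa (0.99 ± 0.241, edgeR adjusted p = 0.00962), 20.4 with TNFa (1.31 ± 0.242, edgeR adjusted p = 0.00198) and 26.6 with the mixture (1.66 ± 0.244, edgeR adjusted p = 6.24e-05), and it was higher in adult MRL/lpr (0.6 ± 0.134, edgeR adjusted p = 0.00311). None of the 8 passed with IFNg or IL-6, but with the block Rfx5 passed with IFNg (0.73, edgeR adjusted p = 0.0123) and Creb1 was lower with IFNa (-0.40, edgeR adjusted p = 0.0159). Creb1 rose with TNFa (0.91 ± 0.229, edgeR adjusted p = 0.0185), Nfya fell with the mixture (-0.39 ± 0.138, edgeR adjusted p = 0.0397) and Nfyb was higher in adult MRL/lpr (0.51 ± 0.143, edgeR adjusted p = 0.0117).

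Among 12 interferon receptor and signalling genes, 5 were higher and 2 lower with IFNg (against 8.57% and 4.32% of all genes), the same numbers with IFNa (9.41% and 5.07%), 4 and 1 with TNFa (4.38% and 3.72%), and 7 and 2 with the mixture (15.7% and 16.4%). None passed with IL-6. In adult MRL/lpr 4 were higher and 3 lower, shares near the 24.1% and 21.6% of all genes. With the block 7 were higher with IFNg (adding Tyk2 and Stat2), 6 with IFNa (Jak1), 7 with TNFa (Ifngr2, Jak1 and Irf2), 8 with the mixture (Ifngr2) and 1 with IL-6, Jak1 (0.45, edgeR adjusted p = 0.00391). Irf1, an interferon-induced activator of class I promoters, went from 43.5 CPM to 1242 with IFNg (4.86 ± 0.41, edgeR adjusted p = 1.87e-06), 205 with IFNa (2.21 ± 0.366, edgeR adjusted p = 0.000596), 178 with TNFa (2.01 ± 0.363, edgeR adjusted p = 0.00178) and 1080 with the mixture (4.57 ± 0.404, edgeR adjusted p = 5.62e-07). The interferons differed in it by 2.65 ± 0.369 (edgeR adjusted p = 0.000769), whereas Nlrc5 had means of 191 and 193 CPM with them. Irf8 rose with IFNg (2.79 ± 0.369, edgeR adjusted p = 9.76e-05) and the mixture (2.42 ± 0.363, edgeR adjusted p = 8.37e-05) and fell with TNFa (-1.58 ± 0.354, edgeR adjusted p = 0.00884). In adult MRL/lpr, Tyk2 (1.25 ± 0.121, edgeR adjusted p = 1.17e-05) and Stat2 (1.22 ± 0.139, edgeR adjusted p = 3.58e-05), which carry the signal of the interferon receptors, were higher. Ifngr1, a chain of the IFNg receptor, fell with IFNg (-1.50 ± 0.192, edgeR adjusted p = 7e-05) and IFNa (-1.73 ± 0.194, edgeR adjusted p = 2e-05), and was lower in adult MRL/lpr (-0.81 ± 0.0951, edgeR adjusted p = 4.48e-05).

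**Figure D5:**
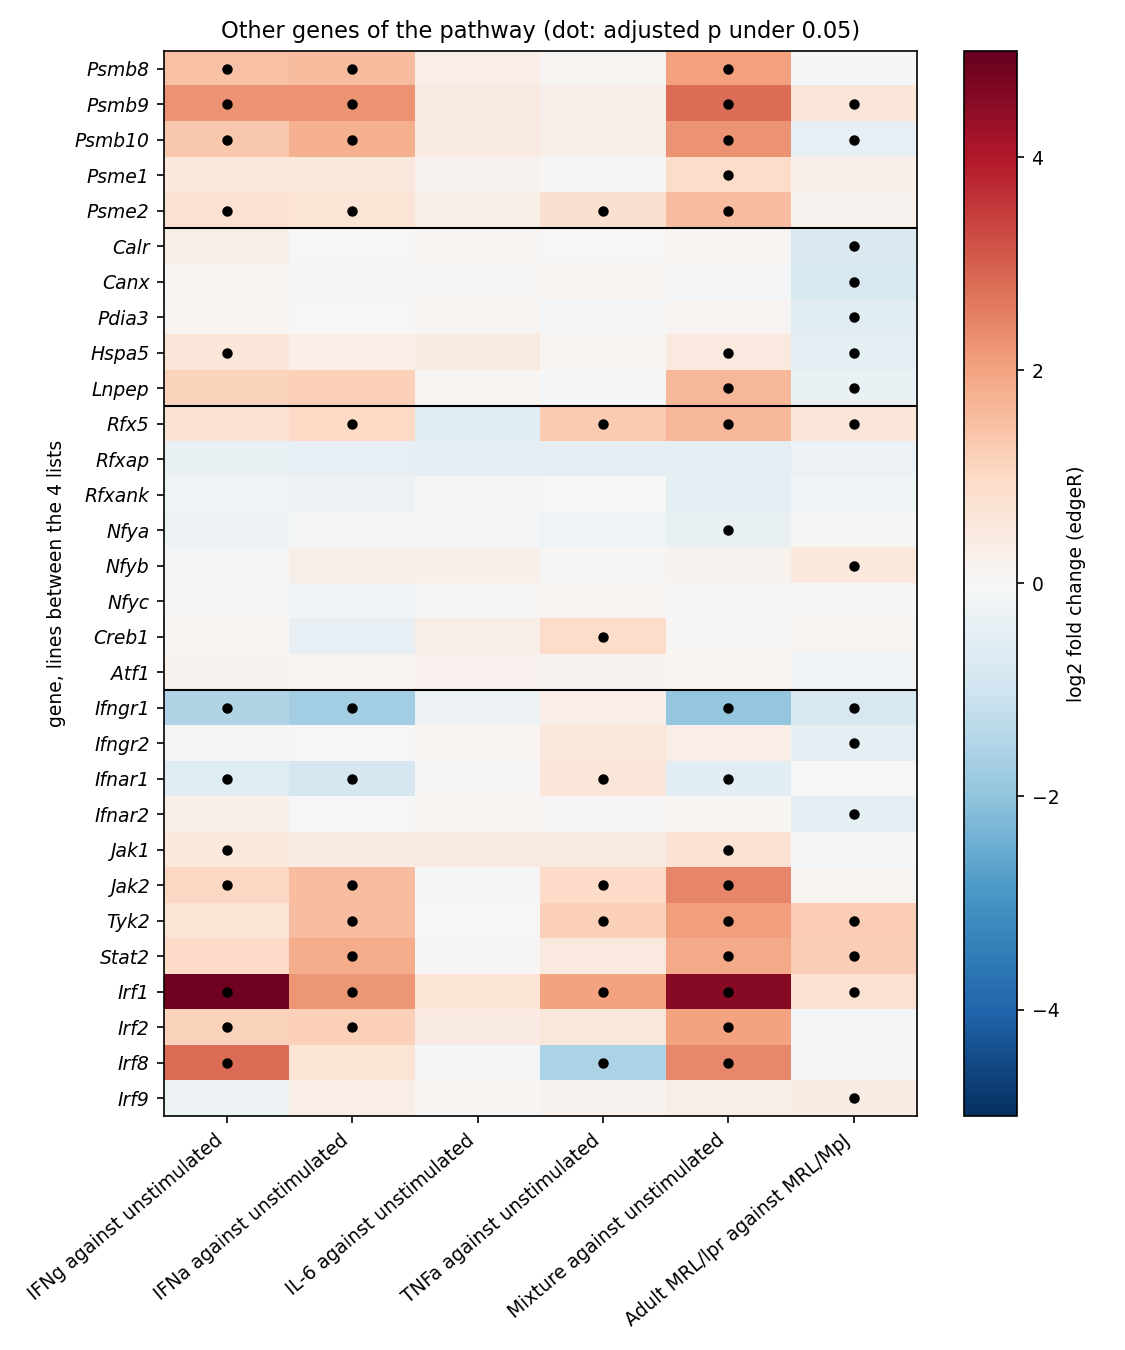
Log2 fold change (colour, edgeR) of 30 other pathway genes in 6 comparisons, with black dots at an adjusted p under 0.05 and lines between the 4 lists: immunoproteasome and PA28, chaperones with Lnpep, partners of NLRC5, and interferon receptors and signalling. The immunoproteasome block is red and dotted with IFNg, IFNa and the mixture, and the block of chaperones with Lnpep is blue and dotted in adult MRL/lpr.

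The genes most like Nlrc5 and H2-K1 over the 5 neonatal comparisons were found among 9533 other genes by the root mean square difference of the 5 log2 fold changes. For Nlrc5 they were Klrk1 (0.52), Ccl2 (0.566), P2ry14 (0.715), Igtp (0.731) and Gbp9 (0.772). For H2-K1, with its small changes, they were Acot7 (0.0763), Magohb (0.134), Rnf24 (0.141), Elp5 (0.145) and Cd52 (0.148). The comparisons share their unstimulated libraries, so the likeness is a description.

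Ordered by mean level over all 8 groups, the adult groups were the 2 lowest for H2-K1 (242 ± 15.1 CPM in MRL/MpJ and 487 ± 273 in MRL/lpr), H2-D1 and B2m. Tap2, by contrast, was lowest in unstimulated neonatal cells (71.5 ± 17.7 CPM), below both adult groups (141 ± 26.1 in MRL/lpr and 166 ± 21 in MRL/MpJ) without overlap, and so was Tapbpl (12.5 ± 2.12 CPM, against 46.3 ± 7.3 and 41 ± 2.84). Age and culture differ together between adult and neonatal groups and cannot be told apart, and these levels were not tested. The mixture was the highest group for 8 of the 9 genes, all but Erap1. On the TMM scale it stood clear of the group with the next mean for Nlrc5, H2-D1, Tap1, Tap2 and Tapbp. For H2-K1, B2m and Tapbpl it overlapped that group. For H2-D1 it cleared only IFNg among the neonatal groups. Its lowest library (559 CPM) lay below the highest unstimulated (640), IFNa (596), TNFa (578) and IL-6 (573) libraries.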

How the data were processed

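RNA-seq was done on 24 mouse libraries in 8 groups of 3, grouped by the labels. The submitters' processing notes name cutadapt 2.1, STAR 2.7.1a and the mm10 build. The table deposited by the authors holds raw read counts per gene without normalisation, and a length column in bases. Which program counted the reads, and its strand setting, is not given in the sources used here. Of its gene IDs, 99.57% matched GENCODE M21. No pair of same-group libraries agreed within counting error (lowest chi-square per degree of freedom 5.07).

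The 6 adult libraries (13799 genes tested) and the 18 neonatal libraries (14626 genes) each had their own edgeR 4.0.16 fit in R 4.3.3, with TMM scaling, the filterByExpr filter and the robust quasi-likelihood F test. Calls were made at a p under 0.05 after Benjamini-Hochberg adjustment over the whole table tested. An SE is the absolute log2 fold change over the square root of F. CPM per kb uses the deposited length. The fits were tested on simulated data.

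Replicate numbers are shared between groups. All 45 same-numbered neonatal pairs deviated together (correlation 0.184 to 0.687), so the numbers pair them. Of the adult pairs 2 of 3 exceeded 0.1, so they were not read as pairs. Other settings tried were a replicate block, limma-voom 3.58.1 and DESeq2 1.42.0, scaling by RLE or by total counts, a minimum of 1 CPM in 3 libraries or no filter, all 24 libraries in 1 fit, a fit of just the groups compared, and each library left out. Leaving out all neonatal libraries numbered 3 was chosen after seeing the data.

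The 9 genes and all lists were chosen with earlier results of these data known. The rule names all 9, and up to 3 called genes with the largest change from each pathway list per comparison. The 5 genes most like Nlrc5 and H2-K1 had a mean log2 CPM of at least 2, with predicted genes skipped. Values of listed genes in further comparisons and single marker genes were named after their values were seen. A listed interferon signalling gene is not reported here and is left out of the counts.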

Additional observations from a re-analysis of the deposited data

How the results depend on the processing

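Of the log2 fold changes of the 9 genes under the alternatives, 1016 kept direction and side of the threshold, 40 passed newly, 25 no longer passed and 53 changed sign, none of them past the threshold in either setting. The cause of these moves was not tested, and 3 libraries a group limit what could be called. With the replicate block, genes called among the 9 went to 3 (IL-6), 3 (TNFa), 3 higher and 1 lower (mixture against IFNg) and 2 (IFNg against IFNa), and among all genes from 1886 to 3468 (IFNg), 143 to 714 (IL-6), 2118 to 3712 (IFNa), 1184 to 2542 (TNFa), 2089 to 3844 (mixture against IFNg) and 756 to 2058 (IFNg against IFNa). No other call among the 9 changed with the block beyond those given in the report.

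DESeq2 gave 2 genes of the 9 for IL-6 and for the mixture against IFNg, and 373 of all genes for IL-6 and 1193 for IFNg against IFNa. Total counts gave 4 higher and 1 lower in adults, against 4783 and 1439 of all genes. They gave 1 lower for the mixture against IFNg, against 2769 lower among 3504 of all genes called. For IFNg against IFNa they gave 1 higher, against 479 of all genes. With all 24 libraries in 1 fit, 1 gene was higher (adult), 2 were higher (mixture against IFNg) and 231 of all genes were called for IL-6. With only the groups compared, IL-6 had 0 of the 9 and 85 of all genes, and the mixture against IFNg had 2. Without the neonatal libraries numbered 3, counts were 2 (IL-6), 2 (TNFa), 4 (mixture against IFNg) and 1 (IFNg against IFNa). A count given here without one over all genes describes the setting and cannot be read against a background.

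Sign changes were as follows. On total counts, adult B2m was 0.08 and Tap2 0.09, and H2-D1 was -0.06 with IFNa and 0 with TNFa. For IL-6, H2-D1 was 0 with the block, 0.01 with limma-voom and 0.08 without the libraries numbered 3. For IFNg against IFNa, Nlrc5 was -0.03 (block), -0.01 (DESeq2 and RLE), -0.02 (all 24 libraries) and -0.13 (without number 3), Tap1 was -0.01 and -0.11 in the last 2, and Tapbp was 0 (block, limma-voom, total counts, at least 1 CPM), -0.03 (DESeq2, RLE, without number 3), -0.02 (no filter, only the groups compared) and -0.04 (all 24 libraries).

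Leaving out each library in turn gave 1 to 3 higher and 1 to 3 lower (adult), 0 to 1 (IL-6) and 0 to 2 (TNFa) of the 9 genes. Among all genes called it gave 4733 to 6519 (adult), 1240 to 1522 (IFNg), 53 to 94 (IL-6) and 795 to 1004 (TNFa). For the mixture against IFNg it gave 1333 to 1887, and for IFNg against IFNa 325 to 597. H2-D1 ranged from -0.05 to 0.7 (adult), -0.27 to 0.35 (IL-6), -0.1 to 0.46 (IFNa) and -0.13 to 0.43 (TNFa). B2m ranged from -0.07 to 0.5 (IL-6), -0.21 to 0.52 (TNFa) and -0.07 to 0.25 (IFNg against IFNa), and H2-K1 from -0.23 to 0.64 (IL-6) and -0.21 to 0.3 (IFNg against IFNa). Tap1 ranged from -0.13 to 0.49 (IL-6) and -0.08 to 0.16 (IFNg against IFNa), Tapbp from -0.02 to 0.7 and -0.23 to 0.14, and Nlrc5 from -0.2 to 0.14 (IFNg against IFNa).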
